A study of Mus musculus with 4 samples.

Results

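The 8 adhesion molecules described here are the proteins that blood vessels present to passing white blood cells: the selectins Sele and Selp, the integrin ligands Vcam1, Icam1 and Icam2, the junction proteins Pecam1 and Jam2, and the sialomucin Cd34. They were chosen by gene symbol, and all 8 were found among the 52636 gene rows of the count matrices. The matrices come from droplet-based single-cell RNA sequencing of mouse kidney glomeruli, the capillary tufts in which blood is filtered. There were 2 libraries from young mice and 2 from aged mice, all untreated. Strain, sex, age in months and the number of mice per library are not given in the labels, so the p-values measure only the spread between these libraries. Glomeruli were held on a magnet by beads perfused through the heart and were then digested with trypsin, dispase and collagenase, as the labels describe. In the text a pair of values for an age stands for replicate 1 and replicate 2 of that age, in that order. Levels are in CPM, the unique molecular identifiers (UMIs, each standing for 1 captured RNA molecule) of a gene per 1000000 UMIs of the summed cells.

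In leukocyte recruitment, selectins catch cells from the flow and let them roll, and Icam1 and Vcam1 then bind leukocyte integrins and arrest them. Pecam1, Jam2 and Icam2 sit at or near the junctions between endothelial cells, where leukocytes pass through the vessel wall. Sele, Vcam1 and Icam1 are known as genes that inflammatory cytokines switch on through the factor NF-kappaB, whereas Icam2, Pecam1 and Cd34 are known as constitutive genes of the endothelium.

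After filtering, 5035 and 6976 young cells and 9187 and 6802 aged cells remained. Young replicate 2 stood apart: its median was 1258 UMIs per cell, against 2715 to 3730 in the other libraries, and 63.5% of its cells carried markers of unrelated types or of none, against 4.26% to 5.86%. Calls of the adhesion genes that its omission ended or added are named beside them. Between 9 and 31 cell barcodes were shared by any 2 libraries. Endothelial cells, named from Flt1, Kdr, Egfl7, Tie1, Ptprb, Eng, Cldn5 and Tek, numbered 2400 and 1373 in young libraries, against 6000 and 4268 in aged ones, and summed to 3923469 to 16017356 UMIs per library. The 8 adhesion genes took part neither in the naming nor in the clustering.

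The endothelium fell into 8 clusters. Clusters 0, 2, 4, 6, 11 and 22 carried markers of glomerular capillaries and are called capillary-like. Ehd3 (1454 CPM over all libraries), Lpl (597 CPM), Gata5, Mapt and Sema5a were higher there than in clusters 5 and 9. Tbx3, of the same list, was at 161 CPM there, 174 CPM in cluster 5 and 127 CPM in cluster 9. Cluster 5 was led by Esm1 and Tgfb2 and held the arteriolar marker Gja5 at 184 CPM, against 11.6 CPM in the capillary-like clusters. Cluster 9 was led by Tspan8, at 2695 CPM, and Thbs2. Cluster 5 also held Igfbp3 (227 CPM) and Fbln2 (179 CPM) of the list of peritubular and venous markers. Nr2f2 of that list was at 6.68 CPM there, 17.5 CPM in cluster 9 and 29.0 CPM in capillary-like cells. Of the arteriolar markers, Sox17 (482 against 298 CPM) and Mgp (648 against 481 CPM) were higher in cluster 9 than in cluster 5. Gja5, Gja4, Fbln5, Bmx, Efnb2 and Hey1 were lower. Both of these clusters are therefore called by their numbers.

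In the RefSeq promoter table of GRCm38.p6, Vcam1, Icam2, Pecam1 and Jam2 have no entry. Promoter sequences are shown for the 4 genes that do: Sele, Selp, Icam1 and Cd34. Whether these sequences bear on the age differences was not tested. Each sequence runs 5′ to 3′ on the plus strand, the coding strand of all 4 genes, from 250 bases before the annotated start site to 50 bases after it. Sele lies at chr1:164047984-164048283, Selp at chr1:164115014-164115313, Icam1 at chr9:21015690-21015989 and Cd34 at chr1:194938571-194938870. Capitals mark matches, on either strand, to GGNNNTTCC (a short form of the NF-kappaB motif), TGANTCA (the AP-1 motif) and TATAAA.
Sele: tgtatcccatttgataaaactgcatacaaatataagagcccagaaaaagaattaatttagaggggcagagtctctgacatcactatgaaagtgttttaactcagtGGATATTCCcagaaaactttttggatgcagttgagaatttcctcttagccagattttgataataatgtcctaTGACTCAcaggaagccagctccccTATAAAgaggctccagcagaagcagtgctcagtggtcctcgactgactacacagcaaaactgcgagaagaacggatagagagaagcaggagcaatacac
Selp: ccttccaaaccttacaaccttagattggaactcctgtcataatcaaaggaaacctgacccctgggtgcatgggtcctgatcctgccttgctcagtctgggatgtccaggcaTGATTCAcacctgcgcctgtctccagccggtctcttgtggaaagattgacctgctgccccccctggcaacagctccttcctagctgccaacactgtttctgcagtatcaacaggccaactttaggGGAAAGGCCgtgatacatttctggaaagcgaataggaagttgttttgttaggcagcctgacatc
Icam1: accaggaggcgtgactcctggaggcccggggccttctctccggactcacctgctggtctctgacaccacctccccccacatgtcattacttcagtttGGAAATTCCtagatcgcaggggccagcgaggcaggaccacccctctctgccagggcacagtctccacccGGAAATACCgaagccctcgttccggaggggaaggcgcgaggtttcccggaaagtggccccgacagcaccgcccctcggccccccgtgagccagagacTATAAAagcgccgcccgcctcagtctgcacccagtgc
Cd34: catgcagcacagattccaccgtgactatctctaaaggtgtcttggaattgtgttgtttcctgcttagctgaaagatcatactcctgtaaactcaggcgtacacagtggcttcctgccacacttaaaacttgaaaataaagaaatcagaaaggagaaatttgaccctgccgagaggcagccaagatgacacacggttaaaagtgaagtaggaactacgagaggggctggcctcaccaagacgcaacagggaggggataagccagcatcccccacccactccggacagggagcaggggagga

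The NF-kappaB-like letters began at -145 from the Sele start site, at -153 and -84 for Icam1 and at -14 for Selp. AP-1 letters began at -73 for Sele and -139 for Selp, and TATAAA at -49 for Sele and 14 for Icam1. The Icam1 positions count from the start site of the RefSeq table. The GENCODE vM21 start of Icam1, at 21015985, lies downstream of that site and of the TATAAA. None of the 3 motifs occurred in the Cd34 window. Among 32851 promoters of the same length, 18.5% held GGNNNTTCC, 13.6% TATAAA and 7.81% TGANTCA, so single matches are common. The match is of letters only, and binding was not measured.

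All 8 genes are protein-coding. In GENCODE vM21 for GRCm38, Sele lies on chromosome 1 from 164048234 to 164057677, with Selp downstream of it on the same strand from 164115264 to 164150026. Cd34 lies farther along chromosome 1, from 194938819 to 194961279. Icam2 (106377656 to 106388075) and Pecam1 (106654217 to 106750628) are both on the minus strand of chromosome 11. Icam1 is on chromosome 9 from 21015985 to 21028817, Vcam1 on the minus strand of chromosome 3 from 116109949 to 116129688, and Jam2 on chromosome 16 from 84774123 to 84825928. Selp, Vcam1, Icam1 and Cd34 each overlap a gene on the opposite strand. How the counting treated strand is not given in the sources used here.

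In the endothelium as a whole, the 4 genes known as inducible or stored adhesion molecules were higher in the aged libraries, and the 4 constitutive or junctional genes were not called. Of 13045 genes tested in the summed endothelial cells by edgeR's quasi-likelihood F test, 744 (5.70%) had a Benjamini-Hochberg adjusted p under 0.05, and 501 (3.84%) were higher in the aged libraries. Of the 8 adhesion genes 4 were called, all higher: Sele, Selp, Vcam1 and Icam1. The median log2 fold change of the 8 was 0.47, against -0.01 for all genes tested. On the TMM-scaled levels of the fit, the libraries of the ages did not overlap for 5 of the 8, a share to be read against the 49.4% of all genes for which this held. Counts of genes whose ages were apart in a class of cells, and these shares of all genes, use that scale, whereas the levels printed are in plain CPM. In plain CPM the count was also 5, with Cd34 in place of Pecam1. The share of all genes was not computed in plain CPM, here or for the groups of clusters below.

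Sele encodes E-selectin, which activated endothelium displays. In endothelial cells it was at 175 and 218 CPM in young and at 312 and 518 CPM in aged libraries. The aged libraries both exceeded the young ones, and aged replicate 2 lay well above aged replicate 1. The means were 196 ± 30.1 and 415 ± 146 CPM (SD, n = 2 each). Aged over young, this was a log2 fold change of 1.21 (SE 0.20, edgeR adjusted p = 0.00131).

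Selp encodes P-selectin, which is kept in the storage granules of endothelial cells and platelets and is brought to the surface on stimulation. It was rare, at 3.98 and 5.61 CPM in young and 18.9 and 37.9 CPM in aged endothelium. Those levels rest on 47 UMIs in young and 909 in aged cells. The log2 fold change came to 2.73 (SE 0.33, edgeR adjusted p = 7.3e-05), with no overlap between the ages. The ratio of the pooled counts was 6.17, with a 95% counting interval of 4.598 to 8.45, which covers counting error only.

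Vcam1 binds the integrin alpha4 beta1 of monocytes and lymphocytes. Its level in endothelial cells was 11.6 and 19.1 CPM in young and 47.0 and 71.6 CPM in aged libraries. The ages did not overlap, with a log2 fold change of 2.12 (SE 0.22, edgeR adjusted p = 2.2e-05).

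Icam1 binds the beta2 integrins of neutrophils and other leukocytes. It was at 285 and 277 CPM in young and 427 and 409 CPM in aged endothelium. The values within an age lay close together, and the ages were apart. Its log2 fold change, 0.70, was the smallest of the 4 (SE 0.15, edgeR adjusted p = 0.00893). Without aged replicate 1 the adjusted p of Icam1 was 0.0753, and its log2 fold change was 0.67.

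The 4 calls depended on the filter on low counts. With no filter, edgeR called none of 23238 genes in endothelial cells, although 2169 had an unadjusted p under 0.05, and the adjusted p of the 4 genes ran from 0.318 to 0.445 with nearly the same fold changes. DESeq2 on the filtered genes called 516 genes and all 4 of these. Without young replicate 2, the library that stood apart, all 4 were called, Icam1 with an adjusted p of 0.0452.

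The junctional and constitutive genes did not pass the test in endothelial cells. Pecam1, which holds endothelial junctions together and is bound by leukocytes in transit, was at 910.3 and 1026 CPM in young and 1069 and 989 CPM in aged libraries (log2 fold change 0.21, SE 0.16, edgeR adjusted p = 0.530). Icam2, another ligand of beta2 integrins, was at 680.4 and 563 against 569 and 535 CPM (-0.05, SE 0.17, edgeR adjusted p = 0.913). Jam2, a junctional adhesion molecule, was at 59.8 and 74.4 against 65.5 and 79.6 CPM (0.25, SE 0.15, edgeR adjusted p = 0.394). Cd34, which carries selectin ligands on some vessels, was at 269 and 326 against 269 and 265 CPM (-0.03, SE 0.15, edgeR adjusted p = 0.955). For Pecam1, Icam2 and Jam2 the young and aged values interleaved. The aged Cd34 values lay just below both young ones in plain CPM and overlapped them on the TMM-scaled levels.

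**Figure D1:**
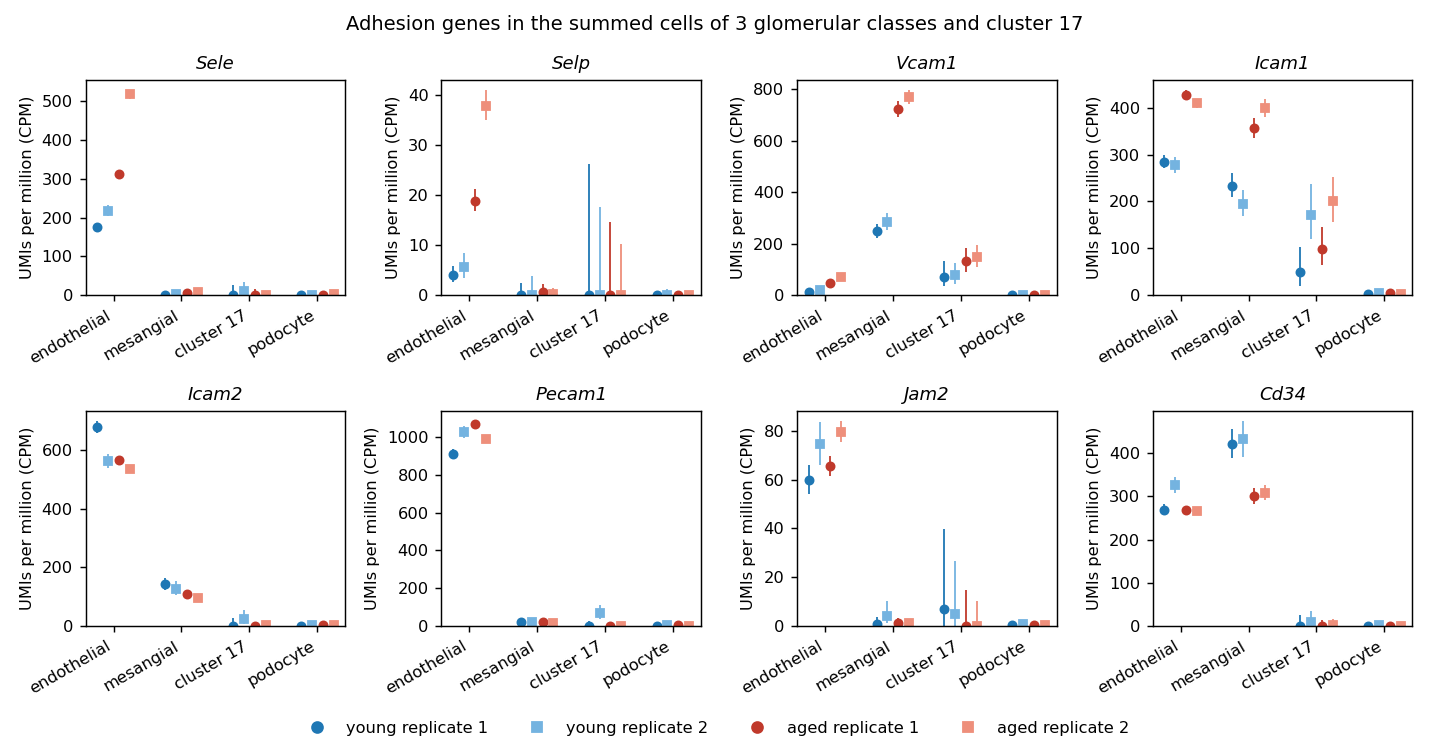
Level of each adhesion gene, in CPM (linear axis from 0), in the summed endothelial cells, mesangial cells, cells of cluster 17 and podocytes of each library. Points are libraries and bars are 95% Poisson intervals, which cover counting error only. Sele reaches 518 CPM in the endothelium of aged replicate 2, Vcam1 is highest, of these classes, in mesangial cells at up to 769 CPM, and all 8 genes are near 0 in podocytes.

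RNA from other cells was measured beside these levels. All 9 mesangial markers were detected in the endothelial sums, at a summed 46.6 and 72.9 CPM in young and 114 and 122 CPM in aged libraries, against 10695 CPM in mesangial cells. The median marker stood at 0.189% to 0.506% of its mesangial level. The carried level was taken as that percentage of the mesangial Vcam1 level, pooled over both ages. It came to 1.19 to 3.17 CPM, beside 11.6 to 71.6 CPM measured in the endothelium as a whole. The summed markers, higher in both aged libraries, were not used for it. The part of carried RNA in the age difference was not tested. Of the 6 macrophage markers 2 and 5 were detected in young and 6 in both aged sums, where they reached 17.9 CPM against 15931 CPM in macrophages, with C1qb, C1qc, Adgre1 and Csf1r at 0 in young replicate 1. The median macrophage marker would carry at most 1.15 CPM of Vcam1. None of 12 genes that tissue digestion induces, such as Fos and Jun, was called in the endothelium by edgeR, and their median log2 fold change was -0.03. The ages were nevertheless apart for 8 of the 12, again beside 49.4% of all genes. Jun, for example, was at 2906 and 2859 CPM in young and 1869 and 2366 CPM in aged endothelium, and Junb at 3336 and 2886 against 4187 and 4205 CPM. Their part in the result was not tested.

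Within the endothelium the rise was not spread evenly over the clusters. In capillary-like cells, 650 of 12535 genes were called (5.19%), 441 of them higher in the aged libraries (3.52%), and the same 4 adhesion genes were among these. The ages were apart for 6 of the 8, against 48.6% of all genes tested, and in plain CPM also for 6, with Cd34 in place of Pecam1. Sele was at 207 and 266 CPM in young and 372 and 608 CPM in aged capillary-like cells (log2 fold change 1.17, SE 0.20, edgeR adjusted p = 0.00195). Selp rose from 4.75 and 6.94 to 22.8 and 44.7 CPM (2.69, SE 0.32, edgeR adjusted p = 6.7e-05). Both genes were thus higher in each aged library than in each young one.

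Vcam1 had the largest fold change of the 8 in capillary-like cells. It was at 6.66 and 6.31 CPM in the young, on 35 and 20 UMIs, and at 34.7 and 66.3 CPM in aged libraries (log2 fold change 3.05, SE 0.30, edgeR adjusted p = 9.6e-06). Icam1 was at 302 and 292 against 425 and 413 CPM (0.61, SE 0.15, edgeR adjusted p = 0.0268). These calls depended on single libraries: without young replicate 1 none of the 4 was called, of 37 genes called in all, and without young replicate 2 only Vcam1 was, of 125. Icam1 was not called when any 1 library was left out, with an adjusted p of 0.106 to 0.206. The fold changes of the 4 kept their direction in each of these fits, from 0.54 to 3.46. With no filter on low counts none of the 8 was called in capillary-like cells.

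Cluster 5, the cluster with Gja5 and Esm1, gave a different picture for Vcam1. Its Vcam1 level was 88.6 and 260.0 CPM in young and 138 and 125 CPM in aged libraries, and the values of the ages overlapped. The log2 fold change came to -0.11 (SE 0.30, edgeR adjusted p = 0.939). In young libraries this cluster held 49.3% and 69.3% of all endothelial Vcam1 UMIs, from 8.04% and 5.90% of the endothelial cells. In the aged libraries it held 30.7% and 15.9%, from 14.2% and 12.3% of the endothelial cells. The capillary-like clusters held 60.3% and 76.3% there.

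By edgeR none of the 7 adhesion genes tested in cluster 5 was called, where 81 of 7686 genes were (1.05%), 42 of them higher in the aged libraries (0.546%), and 965 had an unadjusted p under 0.05. DESeq2 called 41 genes and none of the 7. On the TMM-scaled levels the ages were apart for 5 of the 7, against 43.8% of all genes tested there. In plain CPM they were apart for 3: Sele and Jam2, higher in the aged libraries, and Icam2, lower. Sele was at 29.5 and 24.998 CPM in young and 50.1 and 123 CPM in aged cells (1.73, SE 0.50, edgeR adjusted p = 0.124). The call for Sele turned on the setting: its adjusted p was 0.00224 without young replicate 2, 0.0104 without young replicate 1 and 1.3e-06 without aged replicate 1. Jam2 was at 86.1 and 150.0 against 165 and 190.4 CPM (0.81, SE 0.24, edgeR adjusted p = 0.150), and without young replicate 2 its adjusted p was 0.00442.

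In cluster 9, the Tspan8 cluster, 353 of 7787 genes were called (4.53%), 233 of them higher in the aged libraries (2.99%). Of 7 adhesion genes tested, Icam1, Vcam1 and Sele were called, all higher, and on the TMM-scaled levels the ages were apart for 4 of the 7 (these 3 and Pecam1), against 46.4% of all genes tested there. In plain CPM, for which the share of all genes was not computed, they were apart for 6, with Icam2 and Jam2 lower in the aged libraries. Of the 12 digestion-induced genes 3 were higher (Fos, Junb and Hspa1b) and 1 was lower (Egr1) in aged cluster 9 cells, and their part in the result was not tested. Icam1 was at 96.7 and 147 CPM in young and 372 and 401 CPM in aged cells (log2 fold change 1.81, SE 0.19, edgeR adjusted p = 1.8e-12). The young cells of this cluster had the lowest Icam1 of the 3 groups of endothelial clusters, and in the aged libraries the 3 groups lay between 372 and 491 CPM.

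Vcam1 in cluster 9 was at 3.22 and 5.43 CPM in young and 54.7 and 65.7 CPM in aged cells (edgeR adjusted p = 5.1e-11). The young levels rest on 5 UMIs. Of the 9 mesangial markers 7 and 8 were detected in the young sums of this cluster (Pdgfrb and Agtr1a were at 0 in young replicate 1, Hopx in young replicate 2) and 9 in both aged ones, at a summed 66.1 and 150.2 against 141 and 126 CPM. The median marker would carry 1.21 and 7.54 CPM of Vcam1 in young and 1.998 and 1.82 CPM in aged sums, so the Vcam1 of young replicate 2 lay below its carried value and the aged levels lay above theirs. The ratio of the pooled counts was 14.2, with a 95% counting interval of 5.95 to 44.3. Sele was at 0 and 10.9 CPM against 33.8 and 65.7 CPM (edgeR adjusted p = 1.6e-07), a pooled ratio of 9.86 with an interval of 4.41 to 27.3 on 6 young UMIs. All 3 genes were called without young replicate 2 as well. DESeq2 did not call Sele there, with an adjusted p of 0.902. When cells were named one by one, the log2 fold change of Vcam1 was 2.502 and its adjusted p 0.129.

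**Figure D2:**
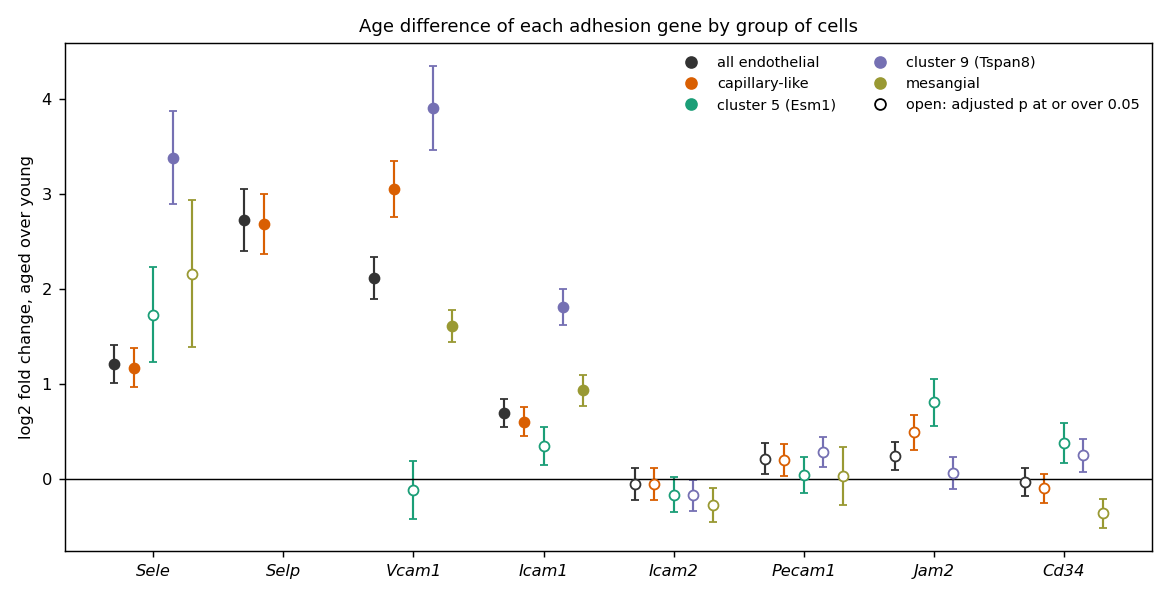
Log2 fold change of each adhesion gene, aged over young (y axis), in all endothelial cells, the capillary-like clusters, clusters 5 and 9 and mesangial cells; bars are standard errors and filled points have an edgeR adjusted p under 0.05. Vcam1 runs from -0.11 in cluster 5 to 3.91 in cluster 9, and Icam2, Pecam1, Jam2 and Cd34 have no filled point. Genes that did not pass the count filter in a group have no point.

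The difference between these groups of clusters was tested as an interaction of age and cluster group, a test added after these levels had been seen. Between capillary-like cells and cluster 5, 58 of 10736 genes differed in their age effect (0.540%), and Vcam1 was among them with a difference of -3.01 (SE 0.39, edgeR adjusted p = 3.2e-05). Between cluster 5 and cluster 9, where 90 of 8524 genes differed (1.06%), Vcam1 differed by 4.13 (SE 0.50, edgeR adjusted p = 3.4e-13) and Icam1 by 1.50 (SE 0.21, edgeR adjusted p = 1.1e-09). The age effect of Icam1 was also larger in cluster 9 than in capillary-like cells, by 1.23 (SE 0.16, edgeR adjusted p = 8.9e-06), a pair with 68 of 10593 genes called (0.642%). These 4 differences were called whichever library was left out. Sele differed by 2.24 between capillary-like cells and cluster 9 (SE 0.50, edgeR adjusted p = 0.0134), and without young replicate 1 its adjusted p was 0.421. Without young replicate 2, 2 further differences of cluster 9 minus cluster 5 were called: Jam2, at -1.14 (edgeR adjusted p = 0.0124), and Sele, at a fitted 7.19 against 0 young UMIs in cluster 9 (edgeR adjusted p = 0.0184). In all, 5 of 23 such tests of the adhesion genes over 3 pairs were called.

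Jam2 had a distribution of its own. Its level in cluster 9 was 310 and 293 CPM in young and 283 and 292 CPM in aged cells, and in capillary-like cells 28.3 and 31.5 against 32.1 and 45.5 CPM. Cluster 9 held 51.1% and 55.5% of the endothelial Jam2 UMIs in young and 33.6% and 31.1% in aged libraries. Its cells were 7.92% and 14.7% of young and 8.75% and 7.78% of aged endothelial cells. The share held by cluster 5 was 9.31% and 10.3% in young and 26.3% and 21.8% in aged libraries. Cluster 5 itself made up 8.04% and 5.90% of young and 14.2% and 12.3% of aged endothelial cells. Jam2 in capillary-like cells did not pass the test (log2 fold change 0.49, SE 0.18, edgeR adjusted p = 0.146), though without aged replicate 1 its adjusted p was 0.0164.

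The selectins were in capillary-like cells almost throughout. These cells held 96.8% to 98.9% of the endothelial Sele UMIs and 97.2% to 100% of the endothelial Selp UMIs in the 4 libraries. Among the clusters, Sele had its highest mean at both ages in cluster 0, at 412 and 483 CPM in young and 532 and 923 CPM in aged cells, and Selp was there at 4.92 and 12.2 against 32.9 and 76.7 CPM. Both ages of both selectins were separate in that cluster.

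Outside cluster 0, aged Selp was on 38 and 121 UMIs in cluster 6 and on 23 and 65 in cluster 4. In young cells it was on 6 and 7 UMIs in cluster 6, at 10.3 and 20.1 CPM, and on 5 and 4 in cluster 4. The Selp counts of the other clusters were small. Young Selp was at 0 UMIs in both libraries in clusters 5, 9 and 11, where the aged sums held 3 and 5, 1 and 12, and 23 and 36 UMIs. In cluster 2 it was on 8 and 0 young and 6 and 12 aged UMIs. In cluster 5 Icam2 was at 568 and 625 CPM in young and 512 and 459 CPM in aged cells (log2 fold change -0.17, SE 0.18, edgeR adjusted p = 0.792). Clusters 11 and 22 held 23 to 41 cells in each young library.

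**Figure D3:**
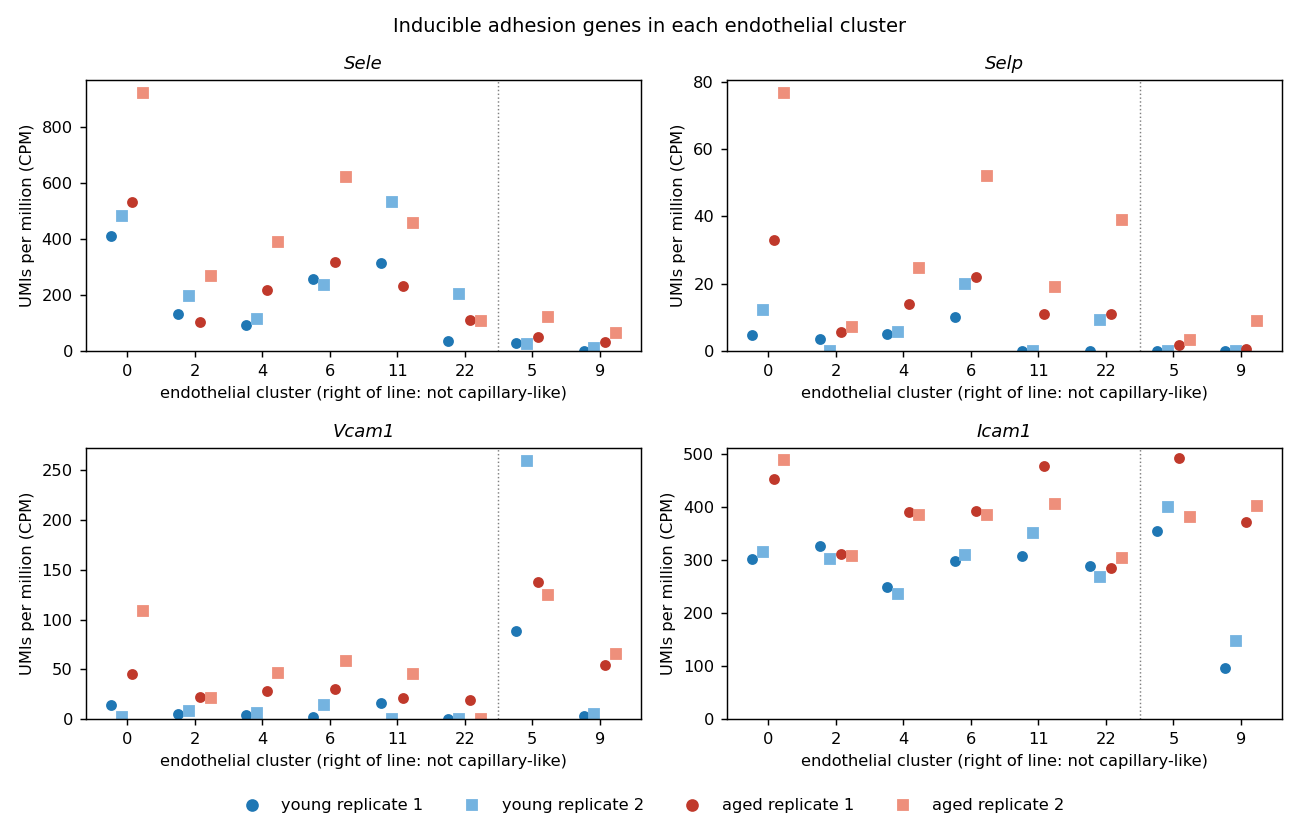
Level of Sele, Selp, Vcam1 and Icam1 (CPM, linear axes from 0) in each of the 8 endothelial clusters, with 1 point per library; the dotted line separates the capillary-like clusters from clusters 5 and 9. Sele in clusters 2, 11 and 22 and Icam1 in clusters 2, 5 and 22 overlap between the ages, and young Vcam1 reaches 260.0 CPM in cluster 5.

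The mix of endothelial clusters changed with age as well. Cluster 0 made up 18.2% and 19.9% of young and 36.4% and 26.0% of aged endothelial cells, and cluster 2, where Sele overlapped between the ages, 40.7% and 32.6% against 9.10% and 14.2%. The levels were therefore also computed with the cluster mix held at the mean over the 4 libraries, a calculation added after the data were seen. Sele was then at 206 and 259 CPM in young and 259 and 480.1 CPM in aged libraries, so aged replicate 1 no longer lay above young replicate 2, and the ratio of the means was 1.59. Selp (3.93 and 6.50 against 15.8 and 34.7 CPM), Vcam1 (14.0 and 25.5 against 42.4 and 66.3 CPM) and Icam1 (282 and 292 against 401 and 398 CPM) stayed apart. Both aged values lay below both young ones for Icam2 (678 and 588 against 574 and 533 CPM) and Cd34 (274 and 328 against 269.6 and 264 CPM). They lay above them for Jam2 (61.4 and 64.5 against 67.8 and 81.5 CPM). The share of all genes whose ages were apart in this calculation was not computed.

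The number of cells in which a gene was seen was compared after every cell had been thinned to 1000 UMIs, which left out 28 and 157 young and 124 and 19 aged endothelial cells with fewer. Sele was detected in 9.91% and 12.3% of young and 14.9% and 23.4% of aged endothelial cells. In podocytes, which are not known to express it, the share was at most 0.188%, at median depths of 4188 to 7660 UMIs. Without thinning the Sele shares were 17% and 19.0% against 24% and 39.2%, at median depths of 2313 and 2643 against 2336 and 3216 UMIs. With 2 libraries per age an exact permutation test cannot give a two-sided p below 0.333, which is what Sele gave.

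Icam1 was detected in 22.2% and 23.9% of young and 29.6% and 28.3% of aged thinned endothelial cells, against 0.115% to 0.563% of podocytes. Vcam1 was seen in 0.632% and 0.822% against 2.93% and 4.40%, and Selp in 0.253% and 0.164% against 1.28% and 2.54%. Both aged libraries were above both young ones for these 3 genes. The shares of Pecam1, at 59.6% and 65.0% against 63.6% and 60.9%, interleaved.

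Cells with UMIs of several inducible adhesion genes were more common in the aged libraries. Among thinned capillary-like cells, 2 or more of Sele, Selp, Vcam1 and Icam1 were detected together in 3.44% and 4.88% of young and 8.43% and 13.3% of aged cells. As each gene was also seen more often in aged cells, the number of cells with a pair was set against the product of the shares of its genes. In aged capillary-like cells, Sele and Selp were seen together in 28 and 52 cells, 2.16 and 1.85 times the product. Sele and Vcam1 were together in 41 and 60 cells, 1.84 and 1.48 times the product, and Sele and Icam1 in 297 and 337 cells, 1.18 and 1.22 times. Sele with Jam2 gave 0.756 and 1.16, on 17 and 52 cells, Sele with Pecam1 1.05 and 0.983, and Sele with Cd34 0.935 and 1.01. In the young libraries Sele with Icam1 gave 1.09 and 1.30, and the pairs with Selp and Vcam1 were too few to give a ratio, at 0 to 3 cells. These cells share a library and differ in cluster, so the ratios are a description and were not tested.

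**Figure D4:**
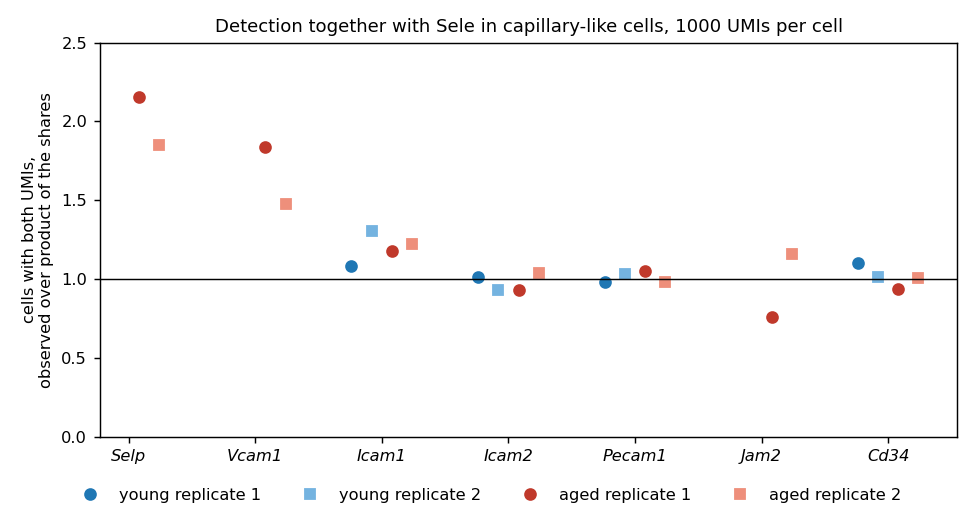
Capillary-like cells with a UMI of Sele and of a second adhesion gene, as the ratio of the observed share to the product of the shares of both genes (y axis), with every cell thinned to 1000 UMIs. Points are libraries with at least 10 cells expected; the line at 1 marks the product. Selp and Vcam1 lie between 1.48 and 2.16 in the aged libraries, Jam2 lies at 0.756 and 1.16 there, and Icam2, Pecam1 and Cd34 lie near 1.

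Mesangial cells, the contractile cells that hold the capillary loops together, carried Vcam1 and Icam1, and both were higher in the aged libraries. There were 248 and 170 young and 547 and 442 aged mesangial cells. Of 9967 genes tested 669 were called (6.71%), 433 of them higher in the aged libraries (4.34%). Of 6 adhesion genes tested 2 were called, and the ages were apart for 5 of the 6, against 52.0% of all genes tested. Vcam1 was at 248 and 285 CPM in young and 722 and 769 CPM in aged cells, means of 267 ± 26.6 and 746 ± 33.4 CPM (SD, n = 2 each). The log2 fold change came to 1.61 (SE 0.16, edgeR adjusted p = 5.3e-05), and Vcam1 was called under all 14 alternatives tried, with log2 fold changes of 1.51 to 2.09.

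Icam1 in mesangial cells was at 234 and 195 CPM in young and 356 and 399 CPM in aged libraries (log2 fold change 0.93, SE 0.16, edgeR adjusted p = 0.00369). The ages did not overlap. Without young replicate 2 its adjusted p was 0.108. The median endothelial marker stood at 4.51% to 5.47% of its own level in the mesangial sums, all 8 markers being detected, at a summed 1018 and 1048 CPM in young and 1407 and 1328 CPM in aged sums. At that percentage endothelial RNA would carry 17.4 to 21.1 CPM of Icam1, beside the 195 to 399 CPM measured. Its part in the age difference was not tested.

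The mesangial comparison sets largely different clusters against each other, since before mixed cells were left out cluster 14 was mostly young (377 and 247 cells, against 34 and 14 aged ones) and cluster 7 mostly aged (687 and 555 cells, against 27 and 26 young ones). Of the 12 digestion-induced genes, 5 were lower in the aged mesangial cells. Their part in the result was not tested.

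Cd34 was also present in mesangial cells, with a mean of 366 CPM over the 4 libraries, against 282 CPM in endothelial cells. It was at 422 and 432 CPM in young and 301 and 309 CPM in aged mesangial cells. Both aged values lay below both young ones, yet the difference did not pass the test (log2 fold change -0.36, SE 0.15, edgeR adjusted p = 0.186). Icam2 was at 142 and 128 CPM in young and 111 and 94.8 CPM in aged mesangial cells (-0.27, SE 0.17, edgeR adjusted p = 0.408). Pecam1 was at 14.9 to 23.0 CPM in the mesangial sums, below the 45.6 to 55.4 CPM that the median endothelial marker would carry, while Icam2 and Cd34 were above their carried values of 25.8 to 31.3 and 12.3 to 14.9 CPM. Sele was on 0 and 4 young and 17 and 35 aged mesangial UMIs, at most 8.53 CPM, below the 16.3 to 19.7 CPM that the median endothelial marker would carry (edgeR adjusted p = 0.118; without young replicate 2 it was 0.0240 and without aged replicate 1 it was 0.0360). Selp was on 0 to 2 UMIs.

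Among the named cells, most Vcam1 RNA lay outside the endothelium. Endothelial cells held 8.28% and 8.06% of the Vcam1 UMIs of all kept cells in young and 9.07% and 9.98% in aged libraries. Mesangial cells held 41.4% and 30.2% in young and 28.0% and 27.5% in aged libraries. In the aged libraries macrophages held a further 42.5% and 42.0%. The level in the 569 and 501 aged macrophages was 1009.9 and 969 CPM, the highest of any class. With 3 and 13 macrophages in the young libraries the ages were not compared there. Cells left unnamed held 48.9% and 58.0% of young and 19.7% and 19.9% of aged Vcam1 UMIs.

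Sele, by contrast, was in endothelial cells for 96.3% and 95.8% of its UMIs in the aged libraries. In young replicate 1 the share was 87.4% and in young replicate 2, with its many unnamed cells, 67.4%. Jam2 (93.5% to 95.9%) and Pecam1 (90.6% to 94.3%) were in endothelial cells to a similar share in the aged libraries. Of the Cd34 UMIs there, endothelial cells held 69.8% and 63.7% and mesangial cells 15.7% and 19.0%.

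**Figure D5:**
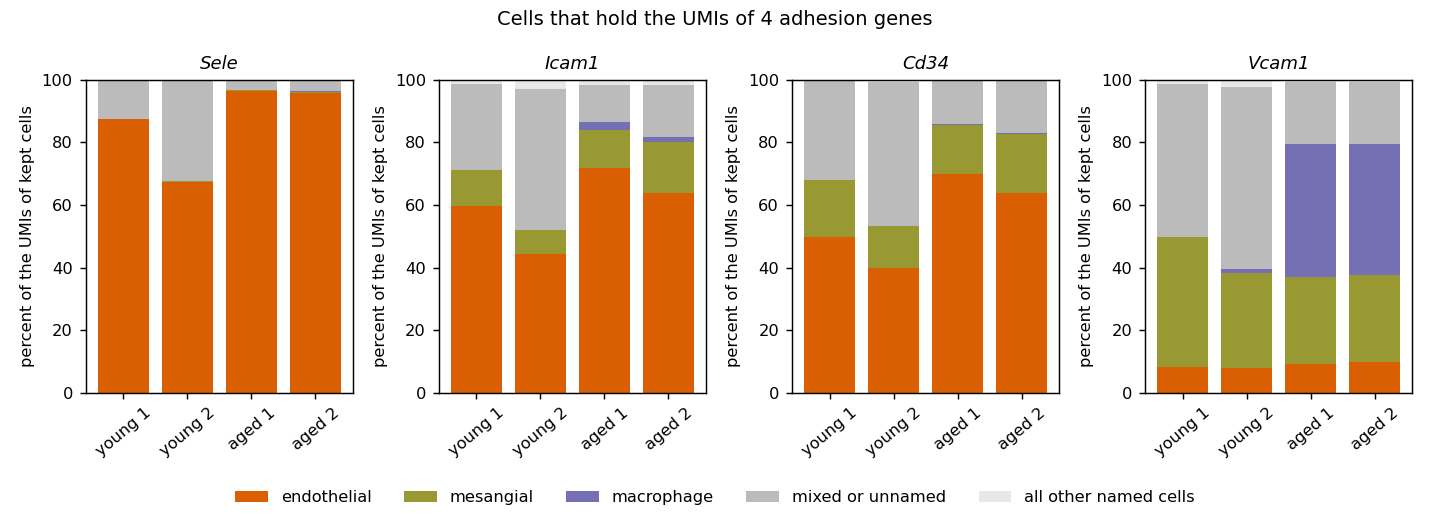
Share of all UMIs of Sele, Icam1, Cd34 and Vcam1 in kept cells (stacked bars from 0 to 100%) that came from endothelial, mesangial, macrophage, unnamed or other cells, for each library. Endothelial cells hold at most 9.98% of the Vcam1 UMIs, and macrophages hold 42.5% and 42.0% in aged libraries.

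Podocytes, the epithelial cells around the capillaries, held almost none of these transcripts. Of 8 genes 3 passed the count filter, and edgeR called none of the 3. It called 783 of all 10835 genes tested (7.23%), 497 of them higher in the aged libraries (4.59%), and 1902 had an unadjusted p under 0.05. DESeq2 and the other settings likewise called none of the adhesion genes. The ages overlapped for all 3, whereas 46.1% of all genes were apart. The highest podocyte level of any of the 8 genes in any library was 6.20 CPM, for Pecam1 in young replicate 2.

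Cluster 17 had the highest level of parietal epithelial markers, but none of these was among its 10 leading genes, so it is called by its number. Clusters 0, 4, 5, 9 and 22 (endothelial) and 26 (macrophage) also had none of their own markers there, yet kept their class names. Their 10 leading genes held no marker of another class, whereas those of cluster 17 held the smooth muscle marker Tagln. After mixed cells were left out, 31 and 86 young cells and 47 and 46 aged cells remained in cluster 17. Vcam1 was there at 71.3 and 76.2 CPM in young and 131 and 148 CPM in aged libraries (log2 fold change 0.92, SE 0.32, edgeR adjusted p = 0.171). The ages were apart for Vcam1, 1 of the 2 genes tested, as for 45.1% of all genes. Icam1, the other, was at 49.9 and 172 against 99.0 and 201 CPM. EdgeR called neither; it called 108 of 4179 genes (2.58%), 65 of them higher in the aged libraries (1.56%), and 608 had an unadjusted p under 0.05. DESeq2 called neither as well. Of the 12 digestion-induced genes 7 were lower in aged cluster 17 cells, and their part in the result was not tested. With the mixed cells kept, the log2 fold change of Vcam1 was 2.06 and its adjusted p 0.0495.

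Between classes, no adhesion gene differed in its age effect between endothelial and mesangial cells in edgeR's interaction test, where 349 of 12262 genes did (2.85%). For Vcam1 the difference, mesangial minus endothelial, was -0.44 (SE 0.22, edgeR adjusted p = 0.406) and for Icam1 0.29 (SE 0.17, edgeR adjusted p = 0.512). Without aged replicate 1 the difference for Vcam1 was called, at -0.74 (edgeR adjusted p = 0.0194). In all, 3 of 38 such tests of the adhesion genes over 6 pairs of classes were called, each on low counts in 1 of the classes. None of the adhesion genes was called between endothelial cells and podocytes (5.56% of all genes called) or between podocytes and cluster 17 (2.21%). Of the first pair, however, Pecam1 was called without young replicate 1 (podocyte minus endothelial -1.53, edgeR adjusted p = 0.0439) and Icam2 without young replicate 2 (2.18, edgeR adjusted p = 0.00345). Pecam1 was called between endothelial cells and cluster 17 (1.11%) and between mesangial cells and cluster 17 (1.52%), in neither case without young replicate 2, and Icam2 between mesangial cells and podocytes (5.73%).

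The other genes of the pathway were taken from 3 lists. Of 28 further endothelial adhesion and transmigration genes, 22 were tested in endothelial cells, 3 were called and all 3 were higher in the aged libraries, beside 5.70% of all genes called and 3.84% higher. The median log2 fold change of the 22 was 0.21. Vwf, the clotting protein stored together with P-selectin, was at 1.27 and 1.02 CPM in young and 6.62 and 4.4996 CPM in aged cells (2.35, SE 0.40, edgeR adjusted p = 0.00155). Those Vwf levels rest on 8 and 4 young and 106 and 72 aged UMIs. Cd63, a membrane protein of the same granules, was at 35.8 and 27.3 against 80.4 and 57.9 CPM (1.23, SE 0.18, edgeR adjusted p = 0.000594). Pvr, the poliovirus receptor homologue at endothelial junctions, was at 23.7 and 32.6 against 50.01 and 45.2 CPM (0.90, SE 0.16, edgeR adjusted p = 0.00205). The ages did not overlap for any of these 3.

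Of 18 genes for cytokines, their receptors, NF-kappaB members and other transcription factors, 17 were tested in endothelial cells and 3 were called, all higher (5.70% and 3.84% of all genes), with a median log2 fold change of 0.23 over the 17. Nfkbia, the inhibitor that NF-kappaB itself induces, was at 1366 and 1265 CPM in young and 2099 and 2008 CPM in aged cells (0.76, SE 0.17, edgeR adjusted p = 0.0131). Il4ra, the receptor chain for interleukin 4, was at 87.5 and 106 against 189 and 147 CPM (0.93, SE 0.15, edgeR adjusted p = 0.00123). Tnfrsf1b, a receptor for tumour necrosis factor, was at 0.159 and 2.55 against 4.62 and 4.12 CPM (2.09, SE 0.53, edgeR adjusted p = 0.0257), with 1 UMI in young replicate 1. The transcription factors Irf1 (1300.01 and 1474 against 1086 and 949 CPM) and Klf4 (1204 and 1380.4 against 761 and 928 CPM) lay lower in both aged libraries and were not called (edgeR adjusted p = 0.322 and 0.119). Of 17 genes for leukocyte ligands and integrins, which endothelial cells largely lack, 8 were tested and edgeR called none.

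Which genes were most like each adhesion gene was measured as the Pearson correlation of log2(CPM + 1) over 38 sums of class and library with at least 20 cells, among 8799 genes with a mean of at least 10 CPM. The sums share libraries, and most of their spread is between cell types, so no p is given. For Sele the 3 likest genes were Ch25h (r = 0.90), Sox7 (0.89) and Stmn2 (0.87). For Selp they were Tie1 (0.84), which is also a marker used for naming, Lrg1 (0.80) and Shank3 (0.79). The correlations of Vcam1 were lower, with Fblim1 (0.78), Plau (0.76) and Pdlim4 (0.75). Genes like Icam1 included Sgk1 (0.84) and Lgals3bp (0.82).

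For Pecam1 the likest genes were Cdh5 (0.84), the adherens junction cadherin of endothelium, Pi16 (0.83) and Lmo2 (0.82). For Icam2 they were Clec14a (0.86), Arhgef15 (0.80) and Rasgrp3 (0.80). For Cd34 they were Fgd5 (0.92), Fscn1 (0.85) and Gm4951 (0.84), and those like Jam2 included Ifi203-ps (0.85) and 4631405J19Rik (0.85).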

How the data were processed

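Per the file headers and the labels, the authors deposited raw UMI counts per gene and barcode, aligned to GRCm38. The labels name Cell Ranger 3.1.0 and the file headers 6.0.1. Barcodes with at least 500 genes and at most 20% mitochondrial UMIs were kept. Scrublet (scanpy 1.11.5) marked 0.449% automatically, so its top scores were removed at 0.8% per 1000 barcodes (6.28%). Cells were clustered (2000 variable genes, 30 components, leidenalg 0.10.2, resolution 1) without the 8 adhesion genes and named by their median relative marker level (at least 0.35, with 3 markers detected); clusters and cells carrying an unrelated type were left unnamed. These thresholds, the fixed cluster mix and the cluster-group interactions were chosen after seeing the data. Counts were summed per class and library and tested with edgeR 4.0.16 (TMM, default filter, quasi-likelihood). Members, gene lists and the naming rule (members, up to 5 called genes per list, 3 likest genes) were chosen with earlier results of these data known. Of the likest genes, 2 are not reported here. On simulated endothelial data of 13045 genes, 57 of 100 2-fold and 87 of 100 3-fold changes were recovered, with 4 false calls. The simulation gave every gene the same dispersion, unlike real libraries, so these rates need not hold for the calls above. Alternatives (DESeq2 1.42.0, size factors, no filter, replicate block, single libraries left out, other clustering and cell filters) are given in the closing section.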

Additional observations from a re-analysis of the deposited data

Results flagged for a closer look

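The age effect (log2 fold change, aged over young) of 5 adhesion genes differed between groups of cells in edgeR's interaction test.

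For Vcam1 the effect in cluster 5 minus that in capillary-like cells was -3.01 (edgeR adjusted p = 3.2e-05), and the effect in cluster 9 was above that in cluster 5 by 4.13 (edgeR adjusted p = 3.4e-13). The young level of Vcam1 in cluster 9 rests on 5 UMIs, and neither difference was refitted with cells named another way. For Icam1 the effect in cluster 9 was above that in capillary-like cells by 1.23 (edgeR adjusted p = 8.9e-06) and above that in cluster 5 by 1.50 (edgeR adjusted p = 1.1e-09). For Sele the effect in cluster 9 was above that in capillary-like cells by 2.24 (edgeR adjusted p = 0.0134), with 6 young UMIs in cluster 9.

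For Icam2 the effect in podocytes was above that in mesangial cells by 1.40 (edgeR adjusted p = 0.0464), on 6 and 9 young and 21 and 11 aged podocyte UMIs, and it was not called without young replicate 1, without aged replicate 1 or with no filter on low counts (edgeR adjusted p = 0.113). For Pecam1 cluster 17 differed from endothelial cells by a fitted -10.47 (edgeR adjusted p = 7.0e-05) and from mesangial cells by a fitted -8.33 (edgeR adjusted p = 0.0201). These 2 values rest on 14 UMIs in young replicate 2 and 0 in the other 3 libraries and were not called without that library, and the mesangial one was not called without aged replicate 1 (edgeR adjusted p = 0.0711). They are no measure of size.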

How the results depend on the processing

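Of 537 single-gene fold changes under alternatives, 481 kept direction and side of the threshold, 21 lost a call, 16 gained one and 19 changed sign, 1 of these with a call. Among the 481 are the 8 endothelial fold changes with the cluster mix held fixed, which have no p-value and were compared by sign only. With no filter on low counts 0 of 8 genes were called in endothelial and in capillary-like cells, 2 in cluster 5 and 1 in cluster 17. With mixed cells kept 4 were called in mesangial cells (Vcam1 and Icam1 higher, Icam2 and Pecam1 lower) and 1 in cluster 17. Leaving out 1 library gave 3 to 4 calls in endothelial cells, 0 to 4 in capillary-like cells, 0 to 2 in cluster 5, 2 to 3 in mesangial cells and 3 in cluster 9. Cluster 5 had 1 call with the adhesion genes among the clustering genes and 1 with cells named one by one. The cause was not tested.

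Same-numbered libraries share no stated source and deviated together only weakly (correlation 0.016 to 0.065, and 0.20 in cluster 17). With the replicate block 4 of the 8 genes were called in endothelial and capillary-like cells, 2 in mesangial cells, 3 in cluster 9 and 2 in cluster 5, and 0 in podocytes and cluster 17.

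Counts of all genes moved by over 1.5 times as follows. With the replicate block they were 1560 in place of 744 in endothelial cells, 1075 of 650 in capillary-like cells, 209 of 81 in cluster 5, 534 of 353 in cluster 9 and 241 of 108 in cluster 17. With DESeq2 they were 329 in mesangial cells (669), 267 in podocytes (783), 41 in cluster 5, 83 in cluster 9 and 41 in cluster 17. With no filter they were 0 in endothelial and capillary-like cells, 1099 in mesangial cells, 207 in cluster 5 and 204 in cluster 17. Leaving out 1 library gave 487 to 770 in endothelial cells, 37 to 728 in capillary-like cells, 304 to 1661 in mesangial cells, 301 to 1021 in podocytes, 87 to 264 in cluster 5, 217 to 238 in cluster 9 and 100 to 176 in cluster 17. Other clustering or naming gave 295 (resolution 0.5) and 361 (cells named one by one) in mesangial cells, 44 (mixed cells kept) and 317 (one by one) in podocytes, 180 (adhesion genes among the clustering genes) in cluster 5, 70 (one by one) in cluster 9, and 61, 16 and 182 (adhesion genes among the clustering genes, mixed cells kept, one by one) in cluster 17. Interactions called, without 1 library, 70 to 603 genes for endothelial against mesangial cells (349), 347 to 651 for endothelial cells against podocytes (719), 56 to 134 for endothelial cells against cluster 17 (131), 207 to 954 for mesangial cells against podocytes (689), 28 to 122 for mesangial cells against cluster 17 (130), 94 to 152 for podocytes against cluster 17 (233) and 32 to 90 for cluster 5 against cluster 9 (90).

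Log2 fold changes that changed sign when 1 library was left out ran from -0.23 to 0.15 for Icam2 and from -0.11 to 0.063 for Cd34 in endothelial cells, from -0.24 to 0.17 and from -0.20 to 0.023 in capillary-like cells, from -0.33 to 0.36 for Pecam1 in mesangial cells, from -0.79 to 0.67 for Vcam1 and from -0.029 to 0.16 for Pecam1 in cluster 5, from -0.015 to 0.15 for Jam2 in cluster 9 and from -0.22 to 1.63 for Icam1 in cluster 17. Under other settings Cd34 in endothelial cells was at 0.0063 (no filter). In mesangial cells with mixed cells kept Sele was at -1.14 and Pecam1 at -1.60 (edgeR adjusted p = 0.00700). Pecam1 there was at -1.34 at resolution 0.5 and -0.97 with cells named one by one. With cells named one by one Vcam1 in cluster 5 was at 0.48 and Jam2 in cluster 9 at -0.14.

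Aged minus young shares of endothelial cells ran, without 1 library, from -5.90 to 0.513 percentage points for Icam2 and from -2.71 to 2.69 for Pecam1, whose share at 500 UMIs per cell was 2.84 points higher. Selp and Vcam1 had under 100 UMIs in each young endothelial sum, which limits the precision of their folds.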
